A study of Mus musculus with 7 samples.

Results

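The largest T cell clone of the old small intestinal epithelium was compared with CD4+ T cells of many small clones from the same sample, and each side was divided by whether *Cd8a* was detected. In the clone, the granzyme genes *Gzma* and *Gzmb*, the chemokine genes *Ccl4* and *Ccl5* and the integrin gene *Itgae* stood within 2-fold of each other in cells with and without *Cd8a*. In polyclonal cells each of these 5 genes was more than 2-fold lower where *Cd8a* was not detected. The cells were chosen by receptor and by counts of unique molecular identifiers (UMIs), which number captured mRNA molecules. Of the 3906 old intraepithelial lymphocytes (IEL) with a T cell receptor (TCR) chain, 1047 carried the most frequent clonotype, the label given to cells with the same receptor chains, and 673 carried the second. The clone is taken here as the 832 of those 1047 cells that had 1 or more *Cd4* UMIs. The polyclonal cells are the 229 old IEL cells, from 190 clonotypes, whose clonotype had 5 or fewer barcodes and which had a *Cd4* UMI and no UMI of *Cd8b1*, *Trdc* or *Fcer1g*. These 1061 cells were drawn from 5811 old IEL cells and from 21365 cells in the whole series. *Cd8a* was detected in 580 clone cells (Cd8a+) and not in 252 (Cd8a-), and in 100 polyclonal cells from 87 clonotypes and not in 129 from 110.

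IEL and spleen (SP) cells had been pooled from C57BL/6 mice labelled male, 6 or 80 weeks old, and each of the 4 pools was marked with a hashtag antibody. The methods give 3 mice per age, whereas a figure legend gives more for the young. For IEL, equal numbers of cells sorted as CD3+ and of cells sorted as CD3+CD4+ went into each pool, so the sort sets how many CD4+ cells there are. Every cell used for the main comparison came from the single old IEL pool of 80-week-old mice. With 1 sample per group and mice not told apart within it, no test between groups was possible, and the 95% intervals below (exact Poisson for levels, exact binomial for shares) cover counting error only. Which mice the clone came from cannot be told.

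CD4+ T cells that settle among intestinal epithelial cells can switch on CD8α without CD8β and form CD8αα homodimers, which bind the thymus leukaemia antigen on epithelial cells. Such cells are known to lower the helper programme set by ThPOK (*Zbtb7b*), to raise Runx3 and T-bet (*Tbx21*), and to take up granzymes and the integrin αE (*Itgae*, CD103), which holds T cells at the epithelium through E-cadherin. Cells of a clonotype are taken to carry 1 receptor, although in some of them only 1 chain was read. A split within a clone thus compares cells that differ in detection of *Cd8a* and not in assigned receptor.

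The receptor of the clone is shown because it defines which cells were compared. The junction of its α chain, the CDR3 region that contacts antigen, is printed 5′ to 3′ as the deposited contigs give it, and capitals mark bases that match neither the germline V segment nor the germline J segment.
Clone TRA, 45 bases: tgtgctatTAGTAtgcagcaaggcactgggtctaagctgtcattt
The α chain joined TRAV13D-2 (chromosome 14, 52942764 to 52943289, plus strand) to TRAJ58 (chromosome 14, 54157280 to 54157342, plus strand). The β chain joined TRBV2 (chromosome 6, 41047340 to 41047995, plus strand) to TRBJ1-6 (chromosome 6, 41535554 to 41535606, plus strand). Positions here and below refer to GRCm38 (mm10) with GENCODE M21 annotation. The α junction held 8 bases of the V segment, 5 bases between the segments and 32 bases of the J segment. The most similar polyclonal α junction of the same length differed at 19 bases.

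The polyclonal receptors were diverse. Their 184 α contigs held 134 different CDR3 sequences from 55 V segments, and their 213 β contigs other than the clone's held 138 different sequences from 20 V segments. TRBV2 was used by 6 of these β contigs and TRBJ1-6 by 17. Transcripts of *Trbv2*, which were counted apart from the receptor libraries, were found in 88.8% of Cd8a+ and 88.1% of Cd8a- clone cells, and in 8.0% and 6.2% of the polyclonal cells. Both junctions of the clone were found together in 770 old IEL cells and in 1 of 5082 old SP cells with a receptor. They were not found together in 2810 young IEL cells, which allows a share of up to 0.107%, or in 5266 young SP cells, which allows up to 0.0570%.

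Receptor capture differed between the 2 sides. Both chains were read in 616 clone cells (74.0%) and 151 polyclonal cells (65.9%), an α chain alone in 191 (23.0%) and 14 (6.11%), and a β chain alone in 25 (3.00%) and 64 (27.9%). Clonotypes are assigned from the chains read, and 25 clone cells were themselves listed with a β chain alone. There were 7 polyclonal cells, all with a β chain alone, that carried the β junction of the clone, and *Trbv2* was detected in all 7. Whether these cells belong to the clone was not tested. In all, 51 polyclonal cells (22.3%) shared a junction with some clonotype of more than 5 barcodes, and 41 of them had a β chain alone. *Cd8a* was detected in 36 of these 51 cells (70.6%) and in 64 of the other 178. The main values below include the 51 cells, as the rule does, and the principal values are also given for the 178 without them.

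The cells had the markers of αβ T cells, together with γ chain transcripts. A UMI of *Cd3d*, *Cd3e*, *Cd3g*, *Trac*, *Trbc1* or *Trbc2* was found in every clone cell and every polyclonal cell. *Cd4* (chromosome 6, 124864692 to 124888221), by which the cells were chosen, stood at 4.16 UMIs per 10000 UMIs of the cells in Cd8a+ clone cells (3.94 to 4.39), 4.29 in Cd8a- clone cells, 4.97 in Cd8a+ polyclonal cells and 3.61 in Cd8a- polyclonal cells. A *Cd4* UMI was found in only 21 of 899 old IEL γδ cells, or 2.34%, at a median of 6076 UMIs. *Cd5*, an inhibitor of TCR signalling that conventional T cells carry and most natural IEL lack, was at 8.52 and 8.68 in the clone and at 6.28 and 4.83 in the polyclonal cells. The list of γδ genes, in which the γ chain gene *Tcrg-C2* was highest (3.05, 3.16, 2.30 and 0.916 in the Cd8a+ and Cd8a- clone and polyclonal cells) and the δ chain gene *Trdc* lowest (0.144, 0, 0 and 0), summed to 5.93 and 5.09 UMIs per 10000 in Cd8a+ and Cd8a- clone cells and to 4.81 and 2.06 in the polyclonal cells. At least 1 of its genes was found in 83.8% and 79.8% of the clone cells and in 83 of 100 and 56 of 129 polyclonal cells, and its part in the results was not tested. The polyclonal cells had no *Trdc* by rule, so their values of 0 were fixed by the gate. The epithelial list summed to 0.0890 to 0.199 UMIs per 10000 and the myeloid list to 1.29 to 1.61 in the 4 groups.

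The gate of the polyclonal cells did not apply to the clone. *Cd8b1*, the chain of conventional CD8 T cells, was found in 16 clone cells, *Trdc*, the γδ constant segment, in 20, and *Fcer1g*, an adaptor used by natural IEL, in 45. Together 61 clone cells had at least 1 of them, of which 54 were Cd8a+, and their median of 7572 UMIs exceeded the 4674 of the remaining 771. Median depths were 4828 and 4499.5 UMIs in Cd8a+ and Cd8a- clone cells and 4844 and 5297 in Cd8a+ and Cd8a- polyclonal cells, and mitochondrial genes took 0.724 to 0.958% of the UMIs in the 4 groups.

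*Cd8a* (chromosome 6, 71373427 to 71379173, plus strand) was found in more clone than polyclonal cells. As deposited, 69.7% of the clone cells (66.5 to 72.8) and 43.7% of the polyclonal cells (37.1 to 50.4) had a UMI of it. Shares of this kind depend on depth, so each cell was thinned at random to 2000 UMIs, which left out 5 clone cells. The shares were then 58.0% in the clone (54.6 to 61.4) and 37.6% in the polyclonal cells (31.3 to 44.2). They were 56.5% in the clone without the 61 cells named above and 33.1% (26.3 to 40.6) in the 178 polyclonal cells that shared no junction with a larger clonotype. Without cells that had a UMI of the lineage and division genes given below, they were 58.3% (54.0 to 62.5) in the clone and 48.7% (40.6 to 56.9) in the polyclonal cells. These last intervals overlapped. Young IEL cells chosen by the polyclonal rule numbered 677, with a median of 6113 UMIs, and 11.1% of them had *Cd8a* after thinning (17.0% before). SP CD4 cells with *Ccr7*, a lymph node homing receptor of naive T cells, were also chosen by the polyclonal rule, which bars *Cd8b1*. After thinning, 0.441% of them had *Cd8a* in young and 1.18% in old mice, at medians of 5491 and 5022 UMIs. These SP values do not measure stray *Cd8a* in the old IEL pool. Cells called Cd8a- need not lack the transcript, since thinning left a *Cd8a* UMI in only 480 of the 577 Cd8a+ clone cells that were thinned.

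The number of *Cd8a* UMIs per cell covered a range on both sides. After thinning, the clone had 42.0% of its cells at 0 *Cd8a* UMIs, 18.4% at 1, 14.8% at 2, 20.4% at 3 to 5 and 4.47% at 6 or more. The polyclonal cells had 62.4% at 0, 11.4% at 1, 6.11% at 2, 16.2% at 3 to 5 and 3.93% at 6 or more. The plot of *Cd8a* UMIs per cell shows that the 2 sides differed most at 0 to 2 UMIs. In the cells with *Cd8a*, its level was 10.9 UMIs per 10000 in the clone and 13.1 in the polyclonal cells.

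**Figure D1:**
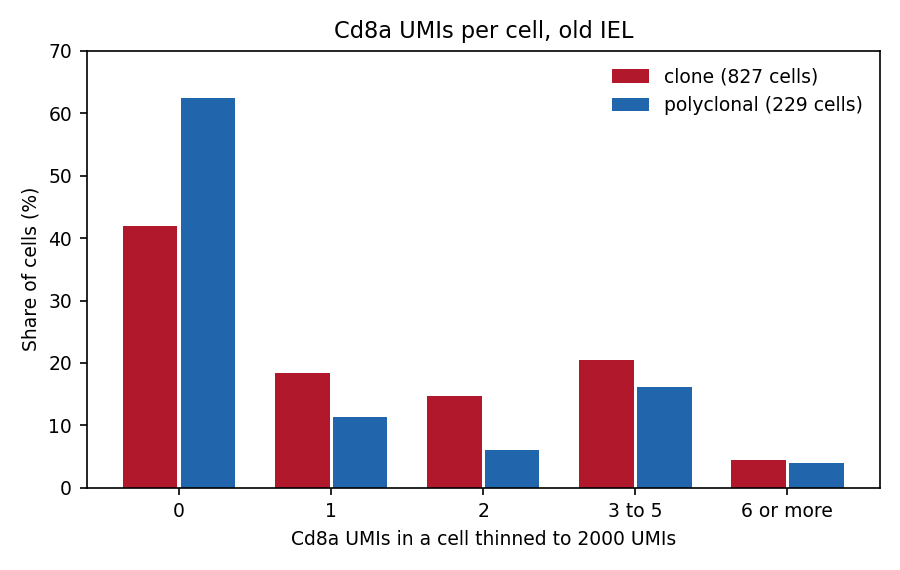
Share of cells (%, y axis) by the number of Cd8a UMIs in each cell after thinning to 2000 UMIs (x axis), for 827 clone cells and 229 polyclonal cells of old IEL. The bars at 0 stand at 42.0% in the clone and 62.4% in the polyclonal cells, and those at 6 or more at 4.47% and 3.93%.

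The share did not change with depth in the same way on both sides. In the clone it was 48.8% of 41 cells under 3000 UMIs, 67.8% at 3000 to 5000, 73.0% at 5000 to 8000 and 81.1% of 74 cells above. In the polyclonal cells it was 53.3% of 15 cells, 47.0%, 47.1% and 14.8% of 27 cells. Thus the deepest polyclonal cells seldom had *Cd8a*. At the limits of the rule, 4 of 22 polyclonal cells of 5-barcode clonotypes had *Cd8a*, as did 4 of 15 cells of 6-barcode clonotypes that passed the other gates. In the clonotype of the clone, the 323 cells with exactly 1 *Cd4* UMI had *Cd8a* in 66.6% and the 215 without a *Cd4* UMI, which are not clone cells here, in 64.7%.

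A mixture of Cd8a+ and Cd8a- cells was not limited to the largest clone. There were 8 other old IEL clonotypes with more than 5 barcodes and at least 15 cells that passed the polyclonal gates, and with 19 to 50 such cells each they had *Cd8a* in 14.3 to 89.5%, with a median of 68.8%. Among the 178 polyclonal cells, 24 β junctions were held by 2 or more cells, 69 cells in all. All cells had *Cd8a* for 8 of these junctions, no cell for 7, and some cells for 9, but none was held by more than 5 cells. The plot of shares by clonotype places the largest clone within the range of these other clonotypes.

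**Figure D2:**
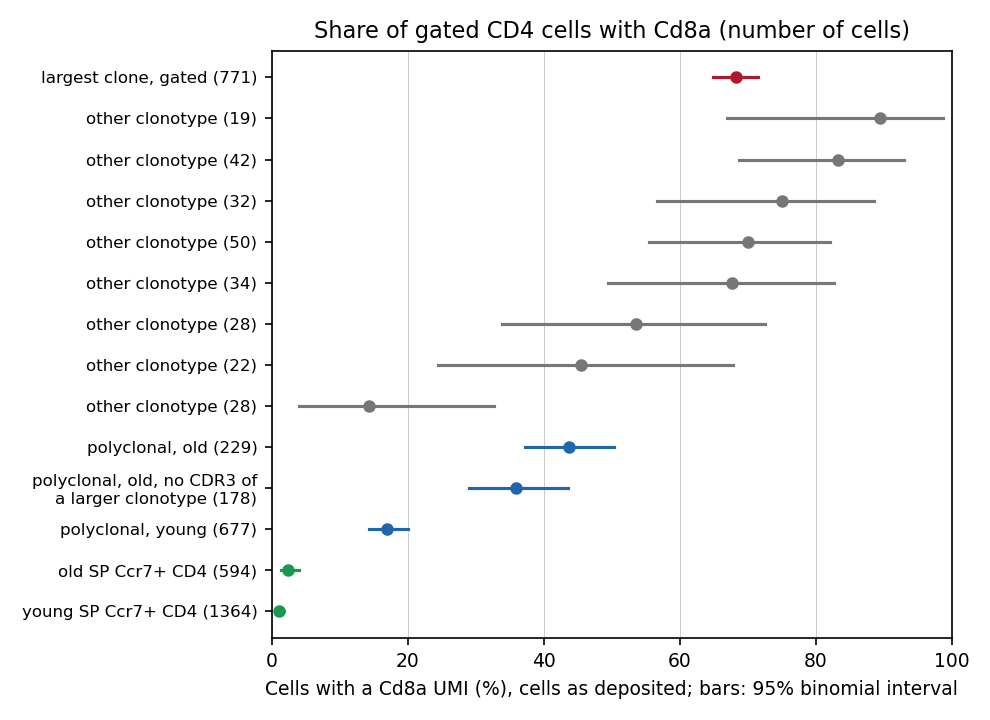
Share of cells with a Cd8a UMI (%, x axis, cells as deposited) with 95% binomial intervals, for the largest clone under the polyclonal gates, 8 other expanded clonotypes, old and young polyclonal cells and SP CD4 cells with Ccr7, with cell numbers in brackets. The clone lies at 68.2% and the other clonotypes at 14.3 to 89.5%, above all SP values.

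Within the clone, the Cd8a+ and Cd8a- cells had similar transcriptomes. Of 6165 genes with at least 0.2 UMIs per 10000 over the 4 groups, 9 were 2-fold or more higher in Cd8a+ clone cells (0.146%) and 7 were 2-fold or more lower (0.114%). Fold changes are ratios of levels after 0.1 UMI per 10000 was added to both, and *Cd8a* itself, which made the split, is 1 of the 9. Granzyme A, *Gzma* (chromosome 13, 113093825 to 113100981), was at 202 UMIs per 10000 in Cd8a+ and 178 (175 to 180) in Cd8a- clone cells. The chemokine *Ccl5* (chromosome 11, 83525778 to 83530518) was at 299 (297 to 301) and 225 (222 to 227). The integrin *Itgae* (chromosome 11, 73090583 to 73147446) was at 9.21 (8.88 to 9.54) and 8.49 (7.99 to 9.02). The ratios were 1.13 (1.12 to 1.15), 1.33 (1.32 to 1.35) and 1.08 (1.01 to 1.16), all under 2-fold.

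The other genes past 2-fold in the split of the clone were low in level, and most depended on few cells. The 8 higher genes besides *Cd8a* were *Fcer1g*, *Tyrobp*, *Klrd1*, *Cd200r2*, *Car2*, *Lag3*, *H2-Aa* and *Cd74*. *Tyrobp*, a signalling adaptor of NK cells and natural IEL, had 253 UMIs in Cd8a+ clone cells, which lay in 26 of the 580 cells. The natural IEL list, *Fcer1g* included, summed to 3.16 UMIs per 10000 in these cells and to 0.191 to 0.525 in the other 3 groups, and the B cell list to 1.43 against 0.0606 to 0.547. Most of that 1.43 was *Cd74*, already among the 8 genes, at 1.21. The polyclonal cells had no *Fcer1g* by rule, so their natural IEL sums were held low by the gate. Without the 61 clone cells that had *Cd8b1*, *Trdc* or *Fcer1g*, 5 of the 16 genes stayed past 2-fold and no other gene joined them. These were *Cd8a*, and on the lower side *Il17a*, *Tmem176a*, *Tmem176b* and *Ly6a*. The log2 ratio of *Klrd1*, an NK receptor, was then 0.13, that of *Tyrobp* -0.10, that of *Cd200r2* 0.08 and that of *Lag3*, an inhibitory receptor, 0.56.

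The lower genes of the clone split were also set by few cells. *Il17a*, the cytokine of Th17 cells, was at 0.0313 UMIs per 10000 in Cd8a+ and 0.604 in Cd8a- clone cells, but 54 of its 76 UMIs in the latter lay in 1 cell and 7 of 252 cells had any. *Ly6a*, an interferon-induced surface protein, was found in 1.72% of Cd8a+ and 6.35% of Cd8a- clone cells. *Hist1h1b* and *Hist1h2ae*, histone genes of dividing cells, were past 2-fold too, and *Hist1h1b* lay in 8 of the 252 Cd8a- clone cells. The share of cells with a UMI was not lower in Cd8a+ clone cells. It was 4.48% in Cd8a+ and 3.17% in Cd8a- clone cells for *Hist1h1b*, and 7.07% and 5.16% for *Hist1h2ae*.

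By the number of *Cd8a* UMIs, *Ccl5* was graded in the clone. In clone cells with 0, 1 or 2, and 3 or more *Cd8a* UMIs of 2000, *Ccl5* was at 250, 293 and 335 UMIs per 10000. *Ctla4*, an inhibitory receptor of activated T cells, was at 8.03, 7.50 and 5.78. *Lag3* was at 0.173, 0.328 and 0.534, *Gzma* at 174, 196 and 199, and *Itgae* at 8.88, 9.09 and 9.64. Both steps of *Ccl5*, the first step of *Gzma* and the second of *Ctla4* exceeded their counting intervals, while the other steps of these 5 genes did not.

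In the polyclonal cells the same split gave a different picture. There 148 genes were 2-fold or more higher in Cd8a+ cells (2.4%) and 144 were lower (2.34%). *Gzma* was at 198 UMIs per 10000 (194 to 202) in Cd8a+ and 35.9 (34.6 to 37.2) in Cd8a- polyclonal cells, a ratio of 5.51. *Ccl5* was at 277 (273 to 282) and 61.6 (59.9 to 63.4), and *Itgae* at 8.44 (7.65 to 9.29) and 2.28 (1.96 to 2.64), ratios of 4.50 and 3.71. Thus the Cd8a+ polyclonal cells stood close to the Cd8a+ and the Cd8a- cells of the clone, and the Cd8a- polyclonal cells stood apart. In the 178 cells that shared no junction with a larger clonotype, *Gzma* was at 204 and 28.1, *Ccl5* at 280 and 53.3, and *Itgae* at 8.03 and 1.85.

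The number of genes past 2-fold is also set by depth, as the clone held 4451402 UMIs and the polyclonal cells 1281462. With the summed counts of each of the 4 groups thinned to the total of the smallest, 84 genes were past 2-fold in the clone (39 higher, 45 lower) and 383 in the polyclonal cells. Among genes with at least 2 UMIs per 10000, the numbers were 2 and 34. The 2 in the clone were *Cd8a* and *Il17a*. The difference between the splits was not tested, since there was 1 pool. The share of clone cells with *Cd8a* rose with depth, from 48.8% under 3000 UMIs to 81.1% at 8000 or more. In the polyclonal cells it was 53.3% and 14.8%. How many Cd8a- cells of each side had *Cd8a* that was missed is not known. The part of missed detection in the difference between the splits was not tested.

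**Figure D3:**
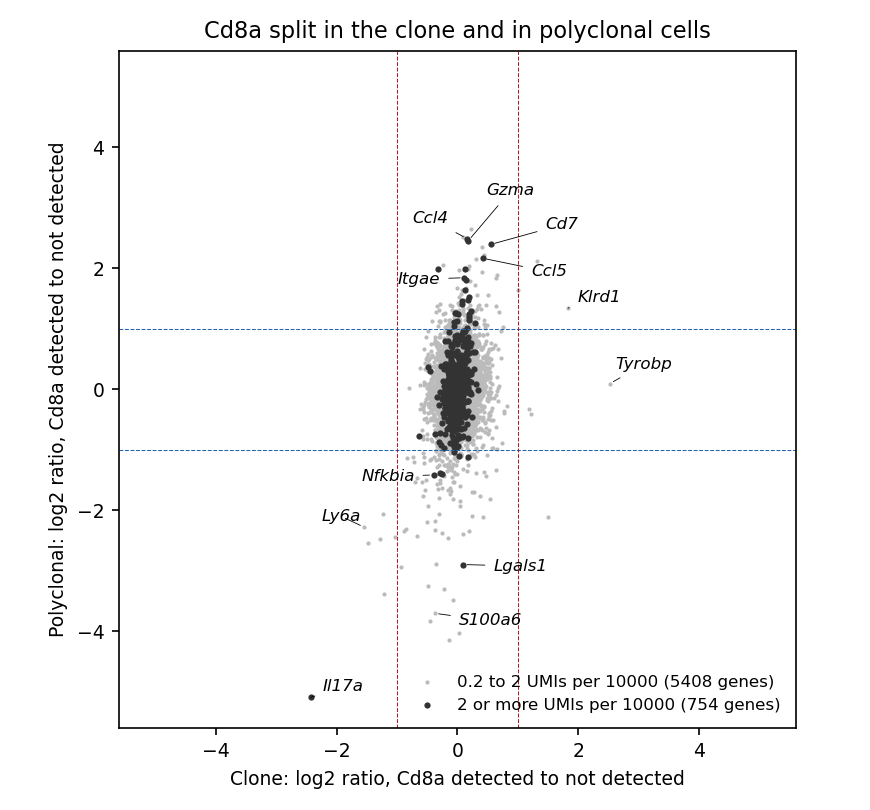
Log2 ratio of Cd8a+ to Cd8a- cells in the clone (x axis) and in the polyclonal cells (y axis) for the genes tested other than those used to choose the cells; dashed lines mark 2-fold and dark points genes with 2 or more UMIs per 10000. Gzma, Ccl4, Cd7, Ccl5 and Itgae lie at 1.85 to 2.49 on the polyclonal axis and at 0.12 to 0.55 on that of the clone.

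In single cells, too, the Cd8a- polyclonal cells had the lowest medians of *Gzma*, *Ccl5* and *Itgae*. The median clone cell had 186 UMIs of *Gzma* per 10000 in the Cd8a+ and 156 in the Cd8a- group, and the median polyclonal cell 165 and 1.30. No *Gzma* UMI was found in 0.517% and 1.59% of the Cd8a+ and Cd8a- clone cells and in 5.0% and 48.1% of the polyclonal cells. For *Ccl5* the medians were 293, 221, 258 and 5.16, and for *Itgae* 8.75, 7.77, 8.45 and 0. As the plot of single cells shows, the Cd8a- polyclonal cells were mixed: their upper quartile of *Gzma* was 56.4, and some reached 498 UMIs per 10000. The Cd8a- clone cells were mostly high, with a lower quartile of 114.

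**Figure D4:**
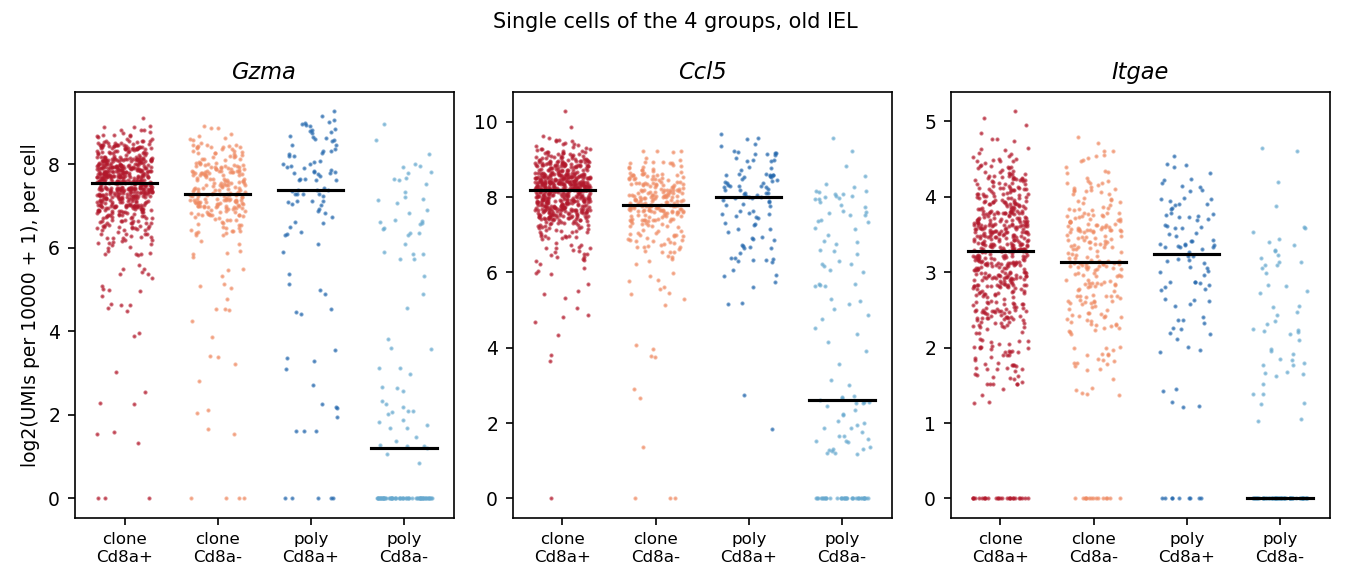
Gzma, Ccl5 and Itgae in single old IEL cells, as log2(UMIs per 10000 + 1) on the y axis, in Cd8a+ and Cd8a- clone and polyclonal cells (x axis); black lines are medians. The medians of the first 3 groups lie close together, while those of Cd8a- polyclonal cells are 1.30, 5.16 and 0 UMIs per 10000 before the logarithm.

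The Cd8a- polyclonal cells held cells of other helper lineages. A UMI of *Il17a* or *Il17f* was found in 17.8% of them, of *Il22*, a cytokine that acts on epithelium, in 10.1%, of *Foxp3*, the factor of regulatory T cells, in 7.75%, and of *Ccr7* in 11.6%. At least 1 of these 5 genes was found in 47 of the 129 cells (36.4%), against 1 of 100 Cd8a+ polyclonal cells, 2.93% of Cd8a+ and 7.14% of Cd8a- clone cells. *Il17a* was not from 1 clone, since the 22 cells with a UMI of it belonged to 19 clonotypes. Genes of cell division, *Mki67* or *Top2a*, were found in 32.6% and 26.6% of the Cd8a+ and Cd8a- clone cells and in 13% and 20.2% of the polyclonal cells. After thinning these shares were 15.9%, 10.0%, 6.00% and 9.30%.

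The difference in granzymes and chemokines was also there among cells with no UMI of these lineage and division genes. The 68 Cd8a- polyclonal cells with no UMI of any of the 7 genes had 43.3 UMIs per 10000 of *Gzma*, 95.3 of *Ccl5* and 2.85 of *Itgae*. The 61 with one had 30.0, 35 and 1.82. The 169 Cd8a- clone cells chosen the same way had 180, 245 and 8.79. A cell with no UMI of these genes need not lack the lineage. *Tcf7* and *Il7r* were at 3.60 and 5.50 in the 68 cells, 2.71 and 2.60 in the 61, and 0.423 and 2.03 in the 169.

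Among Cd8a- cells, the clone was thus higher than the polyclonal cells in *Gzma*, *Ccl5* and *Itgae*, while among Cd8a+ cells few genes differed. In Cd8a+ cells, 35 genes were 2-fold or more higher in the clone (0.568%) and 29 lower (0.47%), and in Cd8a- cells 120 were higher (1.95%) and 125 lower (2.03%). The median log2 ratio of all 6165 genes was 0.01 and 0.03. The comparison of Cd8a- cells and the split of the polyclonal cells share the 129 Cd8a- polyclonal cells, so they are 2 views of those cells and not independent of each other.

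**Figure D5:**
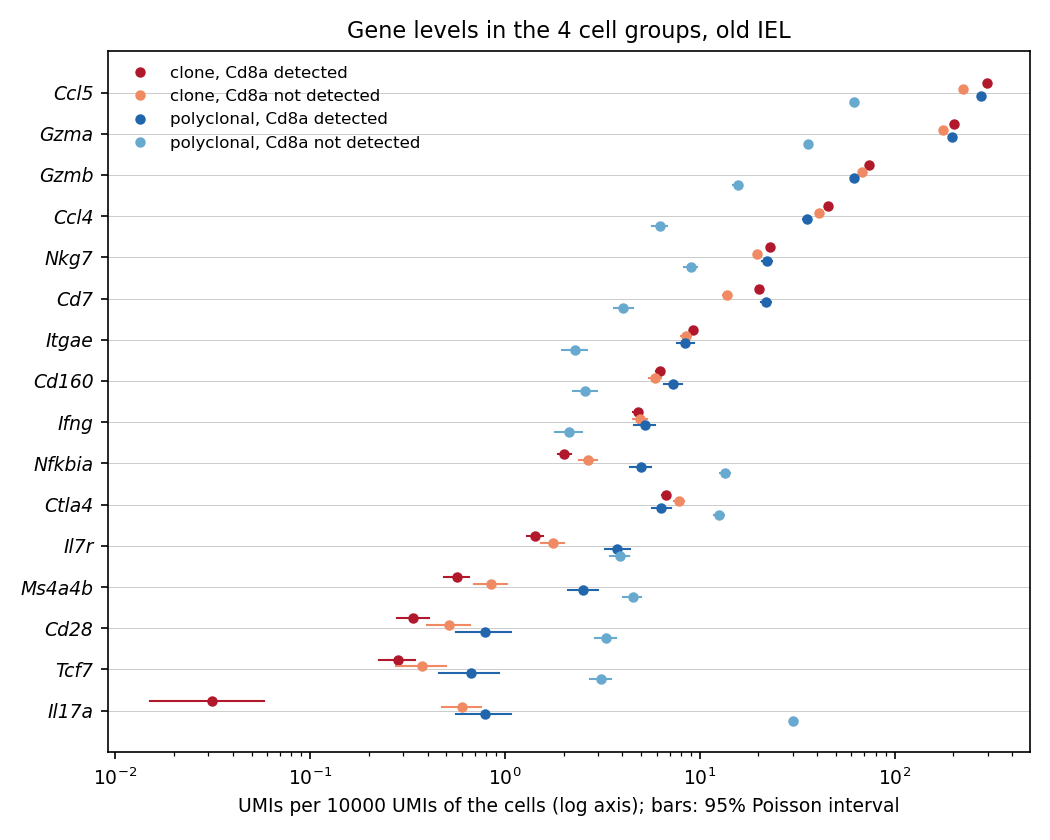
Levels of 16 genes in UMIs per 10000 (log x axis, 95% Poisson intervals) in the 4 cell groups of old IEL. From Ccl5 to Ifng the Cd8a- polyclonal cells lie lowest, and from Nfkbia down both clone groups lie below the polyclonal groups except for Ctla4.

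The cytotoxic genes followed this pattern. Of 15 genes of cytotoxic granules and death ligands, none was past 2-fold between the Cd8a+ cells of the 2 sides, with a median log2 ratio of 0.06, and 5 were higher in the clone among Cd8a- cells, with a median of 0.50. Of all genes, 0.568% were higher and 0.47% lower in the clone among Cd8a+ cells. Among Cd8a- cells 1.95% were higher and 2.03% lower, and these shares are the background for the lists below. In the split of the clone 0 of 15 were past 2-fold, with a median of 0.18. In the split of the polyclonal cells 8 were higher, with a median of 1.13, where 2.4% of all genes were higher. Granzyme B (*Gzmb*) was at 74.2 and 67.8 UMIs per 10000 in Cd8a+ and Cd8a- clone cells and at 62.2 and 15.6 in the polyclonal cells. The granule protein *Nkg7* was at 23.0, 19.6, 22.2 and 8.97 in the same order. *Fasl*, which triggers death through Fas, was at 3.55, 3.56, 3.15 and 1.39.

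Chemokines and cytokines were more uneven. *Ccl4*, a chemokine of activated T cells, was at 45.4 and 40.7 in Cd8a+ and Cd8a- clone cells and at 35.6 and 6.24 in the polyclonal cells, the largest ratio among the effector genes given here for Cd8a- cells, 6.52 (5.94 to 7.16). *Ifng*, the main cytokine of Th1 cells, was at 4.8, 4.92, 5.21 and 2.12. *Xcl1*, which attracts cross-presenting dendritic cells, was at 1.13 and 1.41 in the clone and at 6.52 and 2.91 in the polyclonal cells, with a log2 ratio of -2.43 among Cd8a+ cells and one just short of 2-fold among Cd8a- cells. One Cd8a- clone cell held 73.4% of the *Xcl1* UMIs of its group and one Cd8a+ polyclonal cell 32.5%. *Il2*, a T cell growth factor, was at 0 UMIs in Cd8a+ clone cells and 0.323 UMIs per 10000 in Cd8a+ polyclonal cells. It lay below the gene minimum and is not among the 12 genes counted next. Of the 12 cytokine genes measured, 1 was higher and 3 lower in the clone among Cd8a+ cells, and 4 were higher and 4 lower among Cd8a- cells.

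Most genes of residence in the gut lay within 2-fold between clone and polyclonal cells, and some were higher in the clone among Cd8a- cells. Of 24 such genes, 1 was higher and 1 lower in Cd8a+ clone than polyclonal cells (median log2 ratio 0.04), and 7 were higher and 1 lower among Cd8a- cells (0.31). The log2 ratio was above 0 for 13 of them among Cd8a+ and 16 among Cd8a- cells. *Itga1*, the collagen receptor CD49a, was at 1.88 and 1.38 in Cd8a+ and Cd8a- clone cells and at 2.56 and 0.598 in the polyclonal cells. *Cd160*, a receptor of HVEM on IEL, was at 6.26, 5.91, 7.31 and 2.58. *Cd244a*, a receptor of CD48, was at 1.57, 1.15, 1.51 and 0.216. *Cd69*, which keeps T cells in tissue by opposing S1P receptor 1, was similar in all 4 groups, at 8.23, 8.75, 10.3 and 7.52. *Cd7*, found on many IEL and counted here among the costimulation genes, differed more within the clone than these, at 20.2, 13.7, 21.8 and 4.06.

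Transcription factors past 2-fold were mostly lower in the clone. Of 21 factors of T cell fate, 1 was lower in Cd8a+ clone than polyclonal cells, and 1 was higher and 5 lower among Cd8a- cells. *Runx3*, required for CD8 lineage genes, was at 2.42 and 2.43 in the clone and at 2.56 and 2.06 in the polyclonal cells. *Tbx21* was at 1.34, 1.45, 1.45 and 0.75, and *Zbtb7b* was too low to rank, at 0.0219 to 0.165. *Hic1*, a factor needed by intestinal T cells, was at 1.83, 1.81, 1.72 and 0.700, and *Bhlhe40*, which supports cytokine production, at 2.19, 2.62, 3.55 and 9.56. *Ikzf2* (Helios) was lower in the Cd8a+ polyclonal cells, at 0.464, than in the Cd8a- polyclonal cells, at 1.88, and stood at 0.924 and 0.604 in the clone.

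Genes that were 2-fold or more lower in the clone among both Cd8a+ and Cd8a- cells numbered 20 (0.324%), and 4 were higher in both (0.0649%). By the rule for naming, which asked for a level of 0.5 or more, 11 of the lower and none of the higher were named. That level and the gene minimum were taken over all groups together, which favoured genes high in a single group. *S100a6* and *Tmem176b* were under 0.5 in every group except the Cd8a- polyclonal cells, at 5.42 and 2.93. With no gene minimum, 32 genes were lower and 6 higher in both. The counts of lower and higher genes thus depend on these levels and do not describe the clone alone. The 11 named genes are given by role.

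Both named genes of the IκB family stood lower in the clone. *Nfkbia* (chromosome 12, 55489410 to 55492647), which encodes IκBα, the protein that holds NF-κB in the cytoplasm and is itself induced by it, was at 2.02 UMIs per 10000 (1.86 to 2.18) in Cd8a+ and 2.68 (2.40 to 2.98) in Cd8a- clone cells. It was at 4.97 (4.37 to 5.63) and 13.4 (12.6 to 14.3) in the polyclonal cells, so all 4 intervals were apart. *Nfkbiz*, which encodes the atypical nuclear IκB protein IκBζ, was at 0.344 and 0.437 in the clone and at 1.07 and 2.33 in the polyclonal cells. The 20 NF-κB pathway genes had a median log2 ratio of -0.34 among Cd8a+ and -0.41 among Cd8a- cells. Past 2-fold were 2 and 5, all lower, where 0.47% and 2.03% of all genes were lower. *Tnfaip3* (A20), a further target and brake of NF-κB, did not follow, at 17.7, 16.9, 18.2 and 16.1, and *Rel* was at 1.07, 1.11, 1.37 and 1.62. Of the 17 immediate early and heat shock genes, which stress and cell handling are known to induce, none was past 2-fold between clone and polyclonal cells, with medians of -0.21 and 0.01. The log2 ratio was above 0 for 4 of them among Cd8a+ and 9 among Cd8a- cells. Whether handling had a part in the NF-κB values was not tested.

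*Cd28* and genes of naive or recirculating T cells stood lower as well. *Cd28*, the main costimulatory receptor, was at 0.338 and 0.517 UMIs per 10000 in Cd8a+ and Cd8a- clone cells and at 0.788 and 3.28 in the polyclonal cells. *Tcf7*, the factor TCF-1 of naive and stem-like T cells, was at 0.282 and 0.374 in the clone and at 0.666 and 3.10 in the polyclonal cells. Both were just past 2-fold among Cd8a+ cells, with log2 ratios of -1.02 and -1.01, and that of *Cd28* was 0.18 when the split was made on thinned cells. *Il7r*, the receptor of the survival cytokine IL-7, was at 1.43 and 1.76 in the clone and at 3.78 and 3.88 in the polyclonal cells, so it lay apart from the clone on both sides of the split. Of 15 costimulation genes, 3 were lower and none higher among Cd8a+ cells, and 7 were lower and 2 higher among Cd8a- cells. Their median log2 ratios were -0.31 and -0.06, and 5 and 7 of them lay above 0. Of 7 measured genes of naive T cells, 2 were lower among Cd8a+ and 6 among Cd8a- cells, with medians of -0.84 and -1.80. The gene minimum, taken over all groups together, favoured genes that were high in a single group. With no minimum, 2 and 11 of 16 genes were lower, with medians of -0.18 and -1.33. When the split was made on thinned cells, the Cd8a+ median was -0.24.

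The remaining named genes were those of other helper lineages and of surface proteins. *Ms4a4b*, a membrane protein of T cells, was at 0.567 and 0.843 in the clone and at 2.52 and 4.52 in the polyclonal cells, and was found in 107 of 580 and 63 of 252 clone cells against 43 of 100 and 89 of 129 polyclonal cells. *Il17a* was at 0.788 and 30.2 UMIs per 10000 in the Cd8a+ and Cd8a- polyclonal cells, but all 39 UMIs of the Cd8a+ group lay in 1 cell. *Il22* likewise lay in 1 Cd8a+ polyclonal cell. Among Cd8a+ cells the direction of both genes thus turned in alternatives, with log2 ratios of 0.49 for *Il17a* and 1.89 for *Il22* in cells with 1 TRB and 1 or 2 TRA chains, and of 0.70 and 1.85 when the split was made on thinned cells. *S100a6*, a calcium-binding protein of effector memory cells, was at 0.0564 and 0.103 in the clone and at 0.323 and 5.42 in the polyclonal cells, and 68.8% of its UMIs in the Cd8a+ polyclonal cells lay in 1 cell. *Ly6a* was at 0.0626, 0.374, 0.586 and 3.23, and *Tmem176b*, a cation channel of RORγt+ lymphocytes, at 0.0532, 0.270, 0.444 and 2.93.

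The 4 genes higher in the clone on both sides lay below the level for naming and were looked up after their values were seen. They were *Zmat4*, *Pelo*, *5830405F06Rik* and *Gm44066*. *Zmat4* was at 0.445 and 0.374 UMIs per 10000 in the clone and at 0.101 and 0.0382 in the polyclonal cells, and was found in 108 of 580 and 41 of 252 clone cells. *Pelo* was at 0.479 and 0.573 in the clone and at 0.141 and 0.203 in the polyclonal cells. In the young polyclonal cells *Zmat4* was at 0 in Cd8a+ and 0.00249 in Cd8a- cells, and *Pelo* at 0.322 and 0.187.

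Most TCR signalling genes lay within 2-fold between clone and polyclonal cells. Of 35 TCR signalling genes, 1 was lower and none higher in the clone among Cd8a+ cells (median log2 ratio 0.02), and 4 were lower and 1 higher among Cd8a- cells (-0.06), where 2.03% of all genes were lower and 1.95% higher. *Nr4a1*, an early gene of TCR signalling, was at 4.23, 3.76, 3.51 and 5.28, and the inhibitor *Cd6* at 7.47, 8.01, 6.97 and 4.12. Of 9 inhibitory receptors, none was past 2-fold among Cd8a+ cells, and 2 were higher and 3 lower in the clone among Cd8a- cells. *Ctla4* was at 6.68 and 7.84 in the clone and at 6.34 and 12.6 in the polyclonal cells. *Lag3* was at 0.523 and 0.167 in the clone and at 0.808 and 1.11 in the polyclonal cells.

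Of the genes past 2-fold by *Cd8a* in both the clone and the polyclonal cells, 4 were higher (0.0649%) and 7 lower (0.114%) in Cd8a+ cells. The higher were *Cd8a* itself, *Klrd1*, *Cd200r2* and *Car2*, of which the last 3 had under 0.5 UMIs per 10000 and were not past 2-fold in the clone without the 61 gate-gene cells. The lower were *Il17a*, *Ly6a*, *Tmem176a*, *Tmem176b*, *Birc5*, *Hist1h1b* and *Hist1h2ae*. Of the *Hist1h1b* UMIs in the Cd8a- polyclonal cells, 69.2% lay in 1 cell, and of those of *Hist1h2ae* 85.9%.

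The other expanded clonotypes and the young polyclonal cells place these values. In the 7 other clonotypes with at least 5 Cd8a- cells, *Gzma* in those cells ranged from 68.5 to 264 UMIs per 10000 with a median of 103, against 178 in the clone and 35.9 in the polyclonal cells. *Ccl5* ranged from 38.1 to 595 with a median of 185, and *Itgae* from 3.44 to 9.46 with a median of 7.04. The clone with the lowest share of *Cd8a*, 14.3%, had the lowest *Gzma*, *Ccl5* and *Itgae* of the 7, and too few Cd8a+ cells for a level. In the rest of the 7, these genes lay within 2-fold between Cd8a+ and Cd8a- cells, except in the clonotype of 32 barcodes. There *Gzma* was at 181.3 in Cd8a+ and 77.07 in Cd8a- cells, and *Ccl5* at 261.1 and 120.3. A split within 2-fold in these genes was thus not particular to the largest clone. In the young polyclonal cells the split by *Cd8a* was like that in the old, with *Gzma* at 226 and 37.8, *Ccl5* at 252 and 62.5, and *Itgae* at 6.80 and 1.99 in 115 Cd8a+ and 562 Cd8a- cells. *Ccl4* was at 12.1 in young Cd8a+ cells and at 35.6 in old ones. *Il7r* was at 0.625 in young Cd8a+ polyclonal cells, below the clone, and *Nfkbia* was at 8.14 in young Cd8a+ and 16.4 in young Cd8a- cells, against 4.97 and 13.4 in the old polyclonal cells. With 1 pool per age, age and pool cannot be told apart.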

How the data were processed

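Single-cell 5′ mRNA and TCR libraries of 4 hashtagged pools were made on the 10x Genomics platform. Cell Ranger, version 7.0.1 per the submitters' processing notes, was run by the authors on mm10, and they deposited the raw counts for 32285 genes and the TCR contigs with their clonotypes. The old IEL counts held 33314700 UMIs, with a median of 5324 per cell, and no barcode was shared between pools. Cells were kept as deposited. Scrublet (scanpy 1.11.5) called 145 of the 5811 old IEL cells doublets (2.50%), 19 of them in the clone and 1 among the polyclonal cells, and these were kept except in an alternative.

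Levels are UMIs summed over the cells of a group per 10000 UMIs. Ratios were taken after adding 0.1, for genes with 0.2 or more over the 4 groups, without TCR segment genes. A gene was called at 2-fold. Named genes were the 12 highest and 12 lowest by mean log2 ratio among genes called the same way in both comparisons of a kind, at a level of 0.5 or more and outside the genes used for gating, with members of 15 gene lists as examples. A random draw of 2000 UMIs per cell was used for shares. Shares have Clopper-Pearson and levels Poisson 95% intervals, and a count of 0 allows up to 3 counts. Germline segments were matched to GENCODE M21 transcripts. Cells, lists and rules were chosen with earlier results of these data known. The gene comparison was run on simulated Poisson counts with known folds. These had no spread between cells, so that run does not cover genes whose UMIs lay in few cells. Alternatives changed the pseudocount, the gene minimum, the gates, the depth, the split, the weight of cells and the scaling. Python 3.11.15, numpy 2.4.6, scipy 1.17.1, pandas 2.3.3 and matplotlib 3.10.9 were used. The β junction of the clone is not reported here. Samples of the series other than the 4 single-cell pools were not analysed here.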

Additional observations from a re-analysis of the deposited data

How the results depend on the processing

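No alternative could be tested against replicates, and no paired analysis was possible because each group was 1 pool. The share of cells with *Cd8a* was 58.0% in the clone and 37.6% in the polyclonal cells after thinning to 2000 UMIs. It was 69.7% in the clone without thinning, and 43.6% and 28.8% at 1000 UMIs. The polyclonal share was 28.8% in cells with 1 TRB and 1 or 2 TRA chains. Without cells of the 7 lineage and division genes it was 48.7% (40.6 to 56.9), and that of the clone was 58.3% (54.0 to 62.5).

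Counts of genes past 2-fold are given in this order: clone against polyclonal in both strata (24 as reported), by *Cd8a* on both sides (11), clone against polyclonal in Cd8a+ (64) and in Cd8a- cells (245), and by *Cd8a* in the clone (16) and in the polyclonal cells (292). They were 3, 2, 8, 92, 4 and 88 with a pseudocount of 0.5. They were 11, 6, 27, 142, 9 and 155 with a gene minimum of 0.5, and 38, 18, 135, 461, 30 and 603 with none. With a minimum of 2, an alternative added after the data were seen, they were 3, 2, 3, 41, 2 and 34. With each group thinned to the total of the smallest, also added, the first 5 were 43, 18, 157, 375 and 84. The count by *Cd8a* on both sides was 5 with the polyclonal gates applied to the clone, without the lineage and division genes, or at 3000 to 8000 UMIs. It was 6 with 1-barcode clonotypes or means over cells, and 7 without Scrublet doublets or with 1 TRB and 1 or 2 TRA chains. The count in the clone alone was 5 with the polyclonal gates, 6 at 3000 to 8000 UMIs, 8 with means over cells, 9 without doublets and 10 with those chains. The count in Cd8a+ cells was 188 with those chains, 290 after a split made on thinned cells, 98 with totals that left out dominant genes and 111 without polyclonal cells that shared a junction with a larger clonotype, which was added. The count in the polyclonal cells was 477 with those chains and 653 after the thinned split. Those chains left 46 Cd8a+ polyclonal cells, so fewer cells were counted.

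The 16 named values had 253 values under the alternatives, of which 209 stayed past 2-fold in both comparisons and 44 did not. The mean of the 2 log2 ratios changed sign in 0, but 1 of the 2 ratios did in 6. These were *Il17a* (0.49 and 0.70), *Il22* (1.89 and 1.85) and *Cd28* (0.18) in Cd8a+ cells, with 1 TRB and 1 or 2 TRA chains or the thinned split, and *Hist1h2ae* (0.20) in the split of 1-barcode polyclonal cells. *Cd28* stayed in 8 of 16, *Nfkbia* in 16 of 17 and *Il7r* in 15 of 17. Depth limits all genes under 0.5 UMIs per 10000.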

Other observations

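Other gene groups of the same cells are given as values. Of all genes, 0.568% were higher and 0.47% lower in the clone among Cd8a+ cells. Among Cd8a- cells these shares were 1.95% and 2.03%. Of 16 genes of the cytoskeleton and migration, 2 were 2-fold or more lower in the clone than in polyclonal cells among Cd8a+ cells and 6 among Cd8a- cells, with median log2 ratios of -0.17 and -0.68. *Lgals1*, which encodes galectin-1, was at 1.48 and 1.38 UMIs per 10000 in Cd8a+ and Cd8a- clone cells and at 0.868 and 7.12 in the polyclonal cells. *S100a4*, another calcium-binding protein, had 1 UMI each in the Cd8a+ and the Cd8a- clone cells and 241 UMIs in 33 Cd8a- polyclonal cells. The 2 genes lower among Cd8a+ cells were *S100a4* and *S100a6*, which reached the gene minimum only through the Cd8a- polyclonal cells. In Cd8a+ polyclonal cells all 9 UMIs of *S100a4* lay in 1 cell, as did 11 of the 16 UMIs of *S100a6*. Of 25 genes of cytokine receptors and JAK-STAT signalling, 1 was higher and 2 lower in the clone among Cd8a+ cells, and 4 were lower among Cd8a- cells. Of 19 interferon response genes, 1 and 3 were lower, and of 14 TGF-β pathway genes 0 and 1. Of 6 measured NK receptors and adaptors, 1 was higher among Cd8a+ and 2 among Cd8a- cells. The 2 among Cd8a- cells were *Cd160* and *Cd244a*, which are also counted above among the residency genes and the inhibitory receptors. *Klrd1* went the other way among Cd8a- cells, at 0.0557 in the clone and 0.178 in the polyclonal cells, while 5 of the 6 genes had a log2 ratio above 0. The 1 among Cd8a+ cells was *Tyrobp*, at 0.792 in the clone and 0.0202 in the polyclonal cells. Cells with *Fcer1g* were barred from the polyclonal side only. Without the 61 clone cells that had *Cd8b1*, *Trdc* or *Fcer1g*, *Tyrobp* was at 0.0472 in Cd8a+ clone cells.

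*Areg*, which encodes amphiregulin, a growth factor for epithelium, stood out by its spread. It was at 0.435 and 0.493 UMIs per 10000 in Cd8a+ and Cd8a- clone cells and at 0.0606 and 2.76 in the polyclonal cells. The Cd8a+ polyclonal value rests on 3 UMIs. *Tnfrsf4*, the costimulatory receptor OX40, was found in 54 of 129 Cd8a- polyclonal cells from 52 clonotypes and in 4 of 100 Cd8a+ polyclonal cells, 5 of 580 Cd8a+ and 3 of 252 Cd8a- clone cells.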
